A study of Drosophila melanogaster with 3 samples.

Results

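Transfer RNA (tRNA) genes were examined for binding of Pipsqueak, a transcription factor with a BTB domain, in Drosophila melanogaster. The members were all 290 genes of biotype tRNA on the chromosome arms in the Ensembl 115 gene models, out of 18277 genes on the arms. The 22 mitochondrial tRNA genes were left out. Chromatin immunoprecipitation followed by sequencing (ChIP-seq) was done on whole wandering third-instar larvae, pooled from both sexes, of a transgenic line that stably expresses Pipsqueak with GFP at its C terminus (psq-eGFP). The 3 samples were biological replicates of 1 group, and per the labels the precipitation used an antibody against GFP, although the antibody field of the labels names psq. The promoter and copy number of the transgene, and whether the untagged gene was also present, are not stated in the sources. Because whole animals were used, binding in many cells and binding in a few cells cannot be told apart.

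The authors deposited an optimal list of 9459 peaks, the output of the irreproducible discovery rate step, which compares peak ranks between replicates. Each entry has a summit, its position of highest signal, and a signal value whose scale is not stated. They also deposited a pooled list and a list for each replicate, each with 30000 entries that hold background as well as peaks. All 9459 optimal entries were also in the pooled list, where they were its strongest entries by signal. A gene was called bound when an optimal summit lay inside it or within 500 bp. For each replicate the 9459 entries with the highest signal were taken as its top list, so that all lists compared had the same length. The lists give no read counts, so depth is unknown and no interval for counting error can be given. The control was not analysed here.

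Transfer RNA genes are short genes transcribed by RNA polymerase III. Their promoter lies inside the transcribed region, in an A box and a B box that are bound by the factor TFIIIC, which in turn brings TFIIIB to the DNA just upstream of the gene. Many are present as identical copies, alone or in clusters, and some lie in introns of protein-coding genes. Pipsqueak is known for binding GA-rich sequences such as GAGAG, also recognised by the GAGA factor, and for its roles in Polycomb silencing, oogenesis and growth.

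The genes below carry the strongest or the most informative summits, and are read 5′ to 3′ on the gene's own strand from the RefSeq copy of dm6. Capitals mark the B box, sought as GGTTCGA or GGTTCAA followed by any 2 bases and CC, and the form with GGTTCAA was added after the other had been counted. The tyrosine gene tRNA:Tyr-GTA-1-8 lies at chr3R:8669081-8669174 on the minus strand, and tRNA:Gln-TTG-2-1 at chrX:3427452-3427523 on the minus strand. The lysine gene tRNA:Lys-TTT-1-1 lies at chr2L:8290727-8290799 on the plus strand. The aspartate gene tRNA:Asp-GTC-1-5 lies at chr2L:8541761-8541832 on the plus strand and holds the 1 summit that fell inside a tRNA gene. The leucine genes tRNA:Leu-TAA-2-1, at chr3R:24112964-24113047, and tRNA:Leu-TAA-4-1, at chr3R:24265259-24265342, both on the plus strand, are near copies of each other and both were bound.
tRNA:Tyr-GTA-1-8: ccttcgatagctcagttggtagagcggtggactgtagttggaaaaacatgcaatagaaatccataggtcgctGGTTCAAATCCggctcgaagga
tRNA:Gln-TTG-2-1: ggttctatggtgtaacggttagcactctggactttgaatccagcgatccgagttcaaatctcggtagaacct
tRNA:Lys-TTT-1-1: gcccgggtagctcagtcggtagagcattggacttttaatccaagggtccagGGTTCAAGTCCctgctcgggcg
tRNA:Asp-GTC-1-5: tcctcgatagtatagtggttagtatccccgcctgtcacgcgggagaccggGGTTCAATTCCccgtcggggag
tRNA:Leu-TAA-2-1: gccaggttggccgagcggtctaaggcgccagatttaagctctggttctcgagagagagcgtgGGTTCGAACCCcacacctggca
tRNA:Leu-TAA-4-1: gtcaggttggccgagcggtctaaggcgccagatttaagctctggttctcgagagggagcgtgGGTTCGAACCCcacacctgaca
The leucine genes are 84 bp long and share 81 bases. Counted from 1 at the 5′ end of the gene, and with the base of tRNA:Leu-TAA-2-1 first, they differ by C2T, A55G and G82A. The glutamine gene holds neither form of the B box. Both forms are absent from some other genes too. Of the bound genes 20 of 23 held one of the forms (87.0%), against 206 of 267 unbound genes (77.2%). The form with GGTTCGA alone stood in 13 bound and 132 unbound genes.

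Summits at these genes are shown by windows of 101 bp centred on the summit, on the plus strand of dm6, with GAGAG on either strand in capitals. They are the 3 windows at the strongest summit without a nearby protein-coding start site and at the summits that hold GAGAG. The window at tRNA:Gln-TTG-2-1 is chrX:3427694-3427794, that at tRNA:Leu-TAA-2-1 is chr3R:24112669-24112769, and that inside tRNA:Asp-GTC-1-5 is chr2L:8541776-8541876.
Summit at tRNA:Gln-TTG-2-1: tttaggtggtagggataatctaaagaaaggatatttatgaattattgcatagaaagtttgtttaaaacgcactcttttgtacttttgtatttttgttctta
Summit at tRNA:Leu-TAA-2-1: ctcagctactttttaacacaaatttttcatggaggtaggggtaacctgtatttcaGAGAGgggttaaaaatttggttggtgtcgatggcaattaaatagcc
Summit inside tRNA:Asp-GTC-1-5: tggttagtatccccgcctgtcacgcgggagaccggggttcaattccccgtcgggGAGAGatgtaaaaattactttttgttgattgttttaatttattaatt
In all, GAGAG stood in 2 of the 21 windows around summits near tRNA genes (9.52%), against 17.0% of the windows around all 9459 optimal summits. The DNA replication-related element TATCGATA, sought on both strands, stood in 1 of 21 windows (4.76%), against 1.14% of all windows. The GGTTCGA form of the B box stood in 0 of 21 windows, against 0.011% of all. With both forms, sought on both strands, the counts were 1 of 21 windows and 6 of all 9459. Within 500 bp of the gene, GAGAG was as frequent at bound as at unbound tRNA genes, in 16 of 23 bound and 186 of 267 unbound genes (69.6% and 69.7%).

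Few tRNA genes were bound. A summit of the optimal list lay within 500 bp of 23 of the 290 genes (7.93%), against 29.8% of all other genes and 33.8% of protein-coding genes. Those genes are mostly longer than tRNA genes and so offer more room for a summit. Classes of mostly short genes differed among themselves. The snoRNA genes were bound in 7.43% of cases, the 32 snRNA genes in 21.9% and the 99 rRNA genes in 0%. Of those rRNA genes 96 are 5S genes in an array of near-identical repeats on 2R, so they are not separate loci. The part of gene length was not tested. Measured from the 5′ end alone, 22 tRNA genes (7.59%) had a summit, against 21.3% of all other genes and 24.4% of protein-coding genes. Positions of the arms 2L, 2R, 3L, 3R and X lay within 500 bp of an optimal summit in 5.92% of cases, so the share of tRNA genes stood close to that of the arms as a whole.

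The replicates gave similar shares. In their top lists 27, 21 and 25 tRNA genes had a summit within 500 bp in replicates 1, 2 and 3, a mean of 8.39% ± 1.05 (SD, n = 3), against 29.5% ± 1.78 of all other genes. The difference was −22.1, −20.6 and −20.5 percentage points in the 3 replicates, a mean of −21.1 ± 0.873, which is larger than the spread between them. The exact permutation test gave a two-sided p of 0.25, the smallest that 3 replicates allow. From the 5′ end the shares were 8.05% ± 1.21 for tRNA genes and 21.1% ± 1.61 for all other genes, a difference of −13.1 ± 0.438 points with the same exact p of 0.25. Against protein-coding genes alone, at 24.2% ± 2.02, the difference was −16.2 ± 0.827 points (SD, n = 3).

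**Figure D1:**
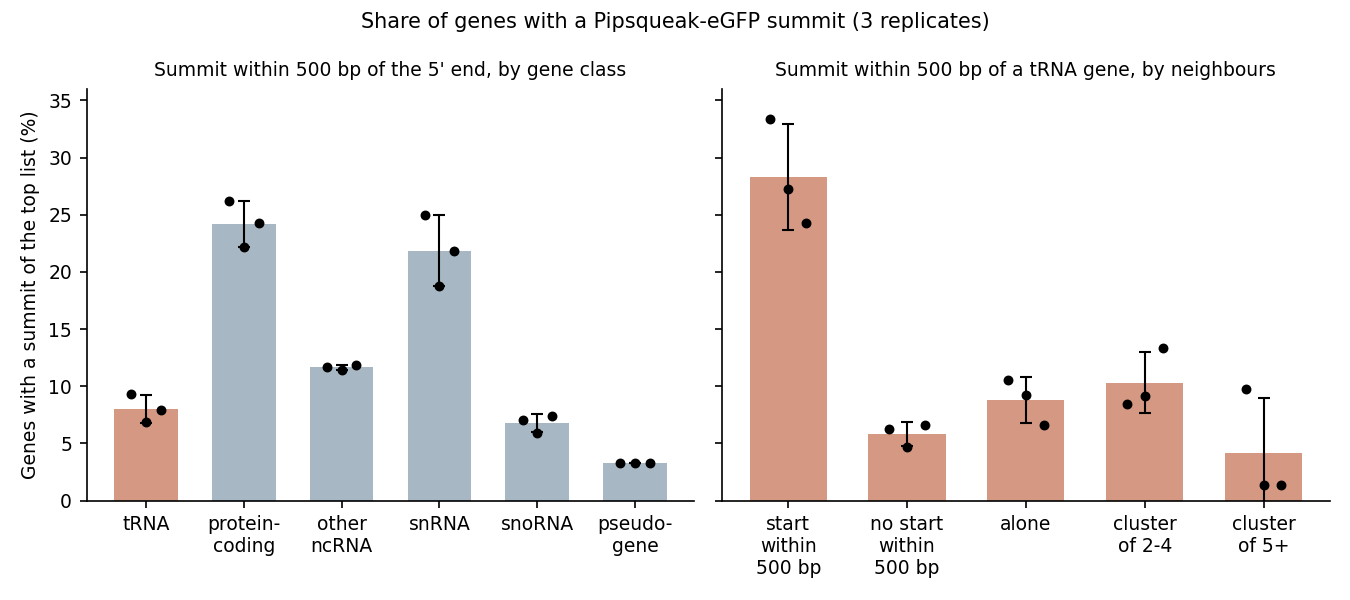
Share of genes with a summit of a replicate's top list. Left, within 500 bp of the 5′ end of the gene by gene class; right, within 500 bp of a tRNA gene, split by whether a protein-coding start site lies within 500 bp and by cluster size. Bars are means, error bars SDs and points the 3 replicates. The tRNA genes, at 8.05%, stand near snoRNA genes and below protein-coding genes, at 24.2%.

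A neighbouring protein-coding start site went with a higher share. Of the 33 tRNA genes with such a site within 500 bp, 9 were bound (27.3%), against 14 of the 257 without one (5.45%). Over the replicates' top lists the shares were 28.3% ± 4.63 and 5.84% ± 1.03, a difference of 22.4 ± 4.74 points (SD, n = 3) with the smallest possible exact p of 0.25. Start sites of protein-coding genes themselves had an optimal summit within 500 bp for 27.4% of those genes. The tRNA genes away from such sites were close to the background there, since 4.14% of positions over 500 bp from a protein-coding start site lay within 500 bp of an optimal summit. For snoRNA genes without a nearby start site the count was 11 of 239 (4.60%). The tRNA minus snoRNA difference over the replicates was 2.07 ± 0.649 points, positive in 3 of 3, with an exact p of 0.25.

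The 23 bound genes drew on 21 distinct summits, of which 5 lay near more than 1 tRNA gene. Their median signal was 296, against 365 for all optimal summits, and they ranked between 537 and 9384 of 9459. The stronger 50% of the optimal list held 9 of the 21, and 5 were in its weakest 25%. Only 1 was in its top 10%. By position 11 summits were intergenic, 9 lay in introns and 1 lay in an exon, that of CG30122.

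The strongest summit stood at tRNA:Tyr-GTA-1-8, which delivers tyrosine and lies in introns of p, a gene of eye pigmentation, and CG8036. Its signal was 1488, rank 537 of the optimal list, and it lay 215 bp upstream of the tRNA gene and 229 bp from the CG8036 start. In the replicate lists it had signal 429, 648 and 441, at ranks 396, 558 and 711, so it was among the stronger peaks of every replicate. The histidine gene tRNA:His-GTG-1-3 (chr2R:12334995-12335066) had a summit of signal 685 located 206 bp upstream of it and 44 bp from the start of CG8490, at ranks 1606, 2648 and 2096. The phenylalanine gene tRNA:Phe-GAA-1-2 (chrX:6744471-6744543) had a summit of signal 507 lying 202 bp downstream, 31 bp from the start of RpL17, a gene of the large ribosomal subunit, at ranks 2269, 3743 and 3537. At the histidine and phenylalanine genes the summit was nearer to the protein-coding start than to the tRNA gene, and at the tyrosine gene it lay about midway.

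Other strong summits lay far from any protein-coding start. At tRNA:Gln-TTG-2-1, a glutamine gene within introns of CG12535 and of lncRNA:CR44999, a summit of signal 1056 lay 221 bp upstream and 8063 bp from the nearest protein-coding start. Its signal was 304, 497 and 294 in the replicates, at ranks 803, 962 and 1412. At tRNA:Lys-TTT-1-1, in an intron of Btk, which encodes a Tec-family tyrosine kinase, a summit of signal 644 lay 262 bp downstream and 6063 bp from the nearest protein-coding start, at ranks 2087, 2440 and 2328. Both genes stood alone, had no identical copy and were in the top list of every replicate.

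At 2 of the other intronic genes the strongest entry of a replicate had its summit just beyond 500 bp. The valine gene tRNA:Val-CAC-2-5 (chr3R:19672277-19672349), in an intron of the nicotinamidase gene Naam, had a summit of signal 497 lying 409 bp downstream and 418 bp from the Naam start, at ranks 3346, 3242 and 3427. The arginine gene tRNA:Arg-ACG-1-1 (chr2R:6142165-6142237) lies in an intron of EcR, which encodes the ecdysone receptor, and had a summit of signal 473 that was 428 bp upstream. All 3 top lists had an entry overlapping that peak, at ranks 1585, 1688 and 1449, with summits 606, 625 and 530 bp from the gene. Within 500 bp of the gene the replicates had weaker summits, of signal 26.5, 201 and 51.8 at ranks 18447, 3640 and 11693. This gene was also the 1 bound gene lost when overlapping entries were reduced to the strongest of each set. The isoleucine gene tRNA:Ile-AAT-1-8 (chr2R:13437866-13437939), in an intron of ATP8A, a phospholipid flippase gene, had 2 summits, of signal 280 and 255, at 276 and 500 bp downstream. All 3 top lists had an overlapping entry, and in replicate 3 its summit, at rank 5297, lay 552 bp from the gene. The leucine gene tRNA:Leu-TAA-4-1, in an intron of jar, the myosin VI gene, had the weakest summit of all, with signal 193, which was in the top list of replicate 2 only.

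Neighbouring tRNA genes could share a summit. The glutamate genes tRNA:Glu-TTC-1-1, tRNA:Glu-CTC-1-1 and tRNA:Glu-TTC-1-2 lie together in an intron of mrj, a gene for an Hsp40-type chaperone, and share a summit of signal 231, at 6371, 8515 and 8546 in the replicates' ranking and 1933 bp from the mrj start. The tryptophan and glycine genes tRNA:Trp-CCA-2-2 and tRNA:Gly-GCC-1-9 share a summit of signal 281 that is 1 bp from the start of CG30122. A second such pair, tRNA:Trp-CCA-2-6 and tRNA:Gly-GCC-1-13, shares a summit of signal 279 that is 83 bp from the start of tud, a gene required for germ cell formation. The aspartate genes tRNA:Asp-GTC-1-4 and tRNA:Asp-GTC-1-5 have 2 summits in common, with signal 264 at 50 bp from the start of Sema1a, an axon guidance gene, and with signal 222 inside tRNA:Asp-GTC-1-5. All 9 genes of these groups had a summit in the top list of all 3 replicates.

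The other bound genes were intergenic. The leucine gene tRNA:Leu-TAA-2-1 had a summit of signal 419 located 245 bp upstream and 330 bp from the start of CG13605, in all 3 top lists. At tRNA:Glu-TTC-1-5 (chr2R:19727460-19727531) the stronger of 2 summits had signal 386 and lay 9 bp from the start of a snoRNA gene, while the weaker, of signal 299, lay 91 bp downstream of the tRNA gene. The alanine gene tRNA:Ala-TGC-2-1 (chr2R:17392215-17392286) had a summit of signal 296 and was supported by replicates 2 and 3. The leucine gene tRNA:Leu-CAG-1-1 (chr2R:8683215-8683297), with signal 218, and the proline gene tRNA:Pro-AGG-1-2 (chr2L:14598859-14598930), with signal 194, were in the top list of replicate 1 only.

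Over all 23 bound genes, 17 had a summit within 500 bp in all 3 top lists, 2 in 2 of them and 4 in 1. In a count added after seeing the data, of top lists with an entry that overlaps the optimal one, 19 genes had 3, 1 had 2 and 3 had 1. Of the 267 unbound genes, 253 had none in any top list and 14 had one in a single replicate. This support is in part built in, since the optimal list was made from the same replicates. The bound gene with the summit farthest from it was tRNA:Trp-CCA-2-6, at 490 bp, and the nearest gene beyond the limit was tRNA:Arg-TCT-1-1, at 584 bp. In all, 26 genes had their nearest summit at 501 to 1000 bp, and 100 genes had it over 10000 bp away.

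**Figure D2:**
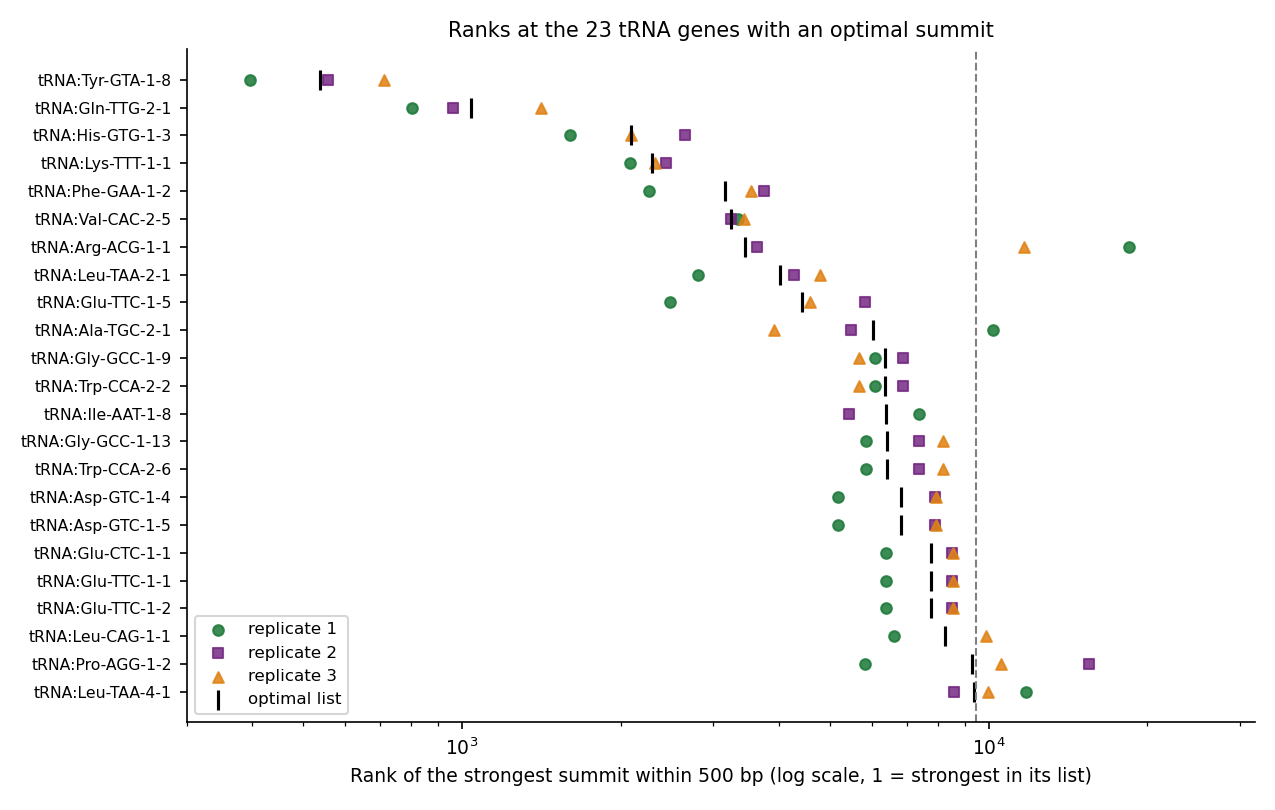
Rank of the strongest summit within 500 bp of each of the 23 bound tRNA genes, on a log axis, in the lists of the 3 replicates (symbols) and in the optimal list (bars). The dashed line is rank 9459, the length of a top list. The upper genes keep to similar ranks in every replicate, while tRNA:Arg-ACG-1-1 ranges from 3640 to 18447, since its strongest replicate summits lay 530 to 625 bp away. A missing symbol means that the replicate had no summit within 500 bp.

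Bound genes were spread over the amino acids. Of the 22 classes of tRNA gene, counted with initiator methionine (iMet) apart from elongator methionine and with selenocysteine, 15 had at least 1 bound gene. Glutamate had 4 of 19 genes bound, leucine 3 of 22, and aspartate (14 genes), glycine (20) and tryptophan (8) had 2 each. Those of glutamate, aspartate, tryptophan and glycine include the shared summits described above, so their counts are not independent. Each of alanine, arginine, glutamine, histidine, isoleucine, lysine, phenylalanine, proline, tyrosine and valine had 1. The 7 classes without a bound gene were serine (20 genes), threonine (17), asparagine (10), cysteine (7), elongator methionine (6), initiator methionine (6) and selenocysteine (1), 67 genes in all.

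**Figure D3:**
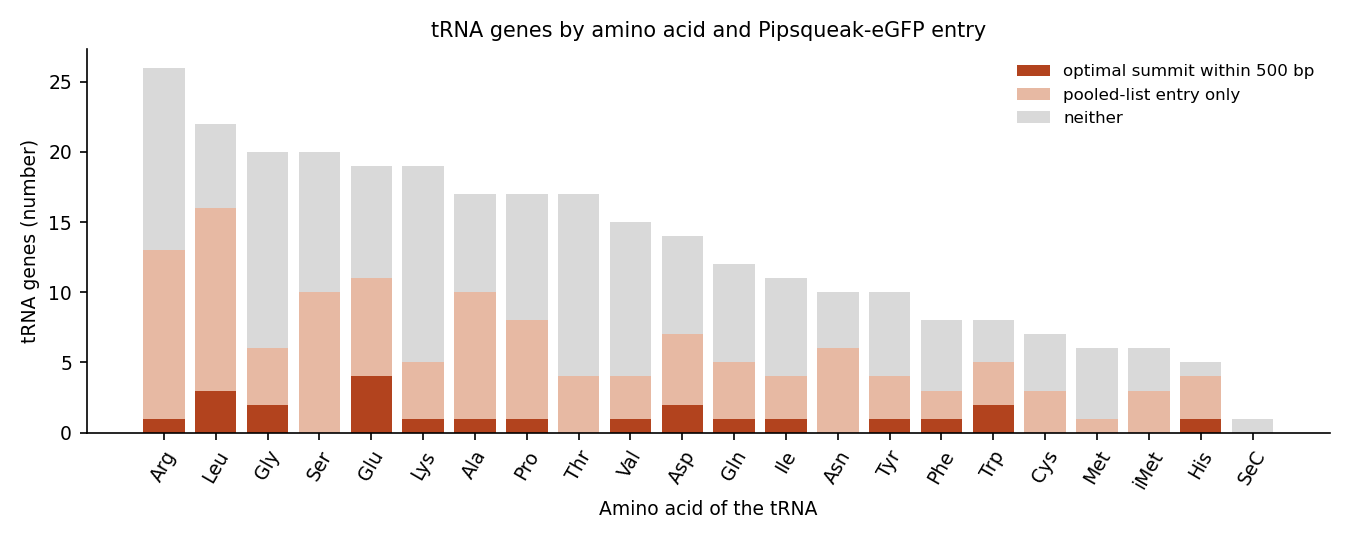
Number of tRNA genes per amino acid, split into those with an optimal summit within 500 bp, those with only an entry of the pooled list, and those with neither. Arginine has the most genes, 26, of which 1 was bound, while glutamate has 19 with 4 bound.

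Large clusters held few optimal summits. With a gap of at most 5000 bp between members, the 290 genes formed 144 groups, of which 76 were single genes, and 18 groups held a bound gene. Single genes were bound in 8 of 76 cases and genes in clusters of 2 to 4 in 14 of 142, against 1 of 72 in clusters of 5 or more. Over the replicates these shares were 8.77% ± 2.01, 10.3% ± 2.67 and 4.17% ± 4.81 (SD, n = 3). In the large clusters replicate 1 had 7 genes with a summit and replicates 2 and 3 had 1 each. Large clusters minus single genes gave −0.80, −7.82 and −5.19 points in the replicates, a mean of −4.61 ± 3.55 with an exact p of 0.25.

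Of the 10 clusters of 5 or more genes, 9 had no bound member, and they held 65 genes. On 2R the cluster with 11 genes from tRNA:Arg-ACG-1-2 to tRNA:Arg-ACG-1-4 (chr2R:6161535-6171759), with arginine, asparagine, isoleucine and lysine genes, had its nearest summit 613 bp away. The other cluster of 11, from tRNA:Val-CAC-1-1 to tRNA:Pro-TGG-1-3 on 3R (chr3R:17617761-17631750), had its nearest summit 13382 bp away. The rest ran from tRNA:Gln-CTG-2-2 to tRNA:Gln-CTG-2-5 (5 genes, nearest summit at 19452 bp), tRNA:Ile-AAT-1-3 to tRNA:Leu-CAA-1-1 (7 genes, 5287 bp) and tRNA:Glu-CTC-3-4 to tRNA:Glu-CTC-3-9 (6 genes, 9387 bp). They also ran from tRNA:Cys-GCA-1-1 to tRNA:Cys-GCA-1-4 (6 genes, 4858 bp), tRNA:Leu-CAG-1-2 to tRNA:Leu-CAG-1-7 (6 genes, 1797 bp), tRNA:Asn-GTT-1-10 to tRNA:Arg-ACG-1-10 (6 genes, 1265 bp) and tRNA:Arg-TCG-2-1 to tRNA:Arg-TCG-3-4 (7 genes, 17713 bp). The 1 large cluster with a bound gene ran from tRNA:iMet-CAT-1-1 to tRNA:Glu-CTC-2-2, where tRNA:Glu-TTC-1-5 was bound and the other 6 members were not.

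Identical copies differed in their calls. The 290 genes had 95 distinct sequences, and 43 of these occurred more than once. Of those 43 families, 11 had a bound copy and 0 had every copy bound, with 16 bound among the 90 copies of the 11 families. In the aspartate family printed above by tRNA:Asp-GTC-1-5, 2 of 12 copies were bound. Genes with an identical copy were bound in 16 of 238 cases (6.72%) and those without in 7 of 52 (13.5%), and over the replicates the shares were 7.14% ± 1.51 and 14.1% ± 2.94 (SD, n = 3). The difference was −2.71, −7.58 and −10.6 points, lower with a copy in 3 of 3 replicates, with a mean of −6.96 ± 3.97 and an exact p of 0.25. The sources do not say how the authors treated reads that match several places. In the stretch from 500 bp before to 500 bp after the gene, a median of 6.33% of 32-base words recurred in the genome at bound genes (highest 11.2%) and 7.86% at unbound genes (highest 72.2%). This share was 20% or more at 0 of 23 bound and 19 of 267 unbound genes, 10 of the 19 in clusters of 5 or more, among them tRNA:Glu-CTC-3-4 to tRNA:Glu-CTC-3-7 and tRNA:Arg-TCG-3-1 to tRNA:Arg-TCG-3-4. The part of repeats in the calls was not tested.

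By arm the bound genes were 4 of 41 on 2L, 13 of 98 on 2R, 0 of 48 on 3L, 4 of 79 on 3R and 2 of 24 on X. The shares of all genes on each arm were not counted, so differences between arms cannot be tied to tRNA genes. The 0 on 3L was not shared by every replicate, since 4, 0 and 5 genes there had a summit in the top lists of replicates 1, 2 and 3. In replicate 1 these came from the cysteine cluster, where tRNA:Cys-GCA-1-1, tRNA:Cys-GCA-1-2, tRNA:Cys-GCA-1-3 and tRNA:Lys-CTT-1-12 shared an entry at rank 8891, against ranks 10169 and 21566 in replicates 2 and 3. In replicate 3 they were tRNA:Ile-TAT-1-1, tRNA:Glu-CTC-3-3, tRNA:iMet-CAT-1-4, tRNA:iMet-CAT-1-5 and tRNA:Glu-CTC-2-3, at ranks from 8935 to 9394. These genes were chosen because they lie on 3L and are in a top list, and all sit near the end of that list.

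Most summits near tRNA genes lay beside the gene, which at a median length of 73 bp fills little of the window. The share of bases inside the genes was not counted. The nearest summit was upstream of 12 bound genes, inside 1 and downstream of 10, at a median distance of 221 bp, and it was within 100 bp of 2 genes. Of the 21 summits, 16 were closer to a tRNA gene than to a protein-coding start. They were chosen for lying within 500 bp of a tRNA gene, so this follows in part from the choice. Over the arms optimal summits had a density of 71.2 per Mb, and around tRNA genes it was 77.2 per Mb within 250 bp, 110 at 251 to 500 bp and 122 at 501 to 1000 bp, from 11, 10 and 20 summits. Around protein-coding start sites it was 345 per Mb within 250 bp and 136 at 251 to 500 bp. The optimal summits therefore had their highest density at the start site itself for protein-coding genes, and farther out than 500 bp for tRNA genes.

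Among weaker entries the tRNA genes looked different. The pooled list holds 20541 entries below the optimal ones, a mix of weak peaks and background. Within 250 bp of tRNA genes these had a density of 435 per Mb, 2.82 times that of the arms (154), against 456 per Mb at protein-coding start sites and 201 at snoRNA genes. Farther from tRNA genes the density was also above that of the arms, at 319 per Mb at 251 to 500 bp, 255 at 501 to 1000 bp, 258 at 1001 to 2000 bp and 247 at 2001 to 5000 bp. The weaker entries of the replicate lists gave 281, 456 and 527 per Mb around tRNA genes, a mean of 421 ± 127 (SD, n = 3), against 154 ± 0.357 over the arms, 446 ± 58.7 at protein-coding start sites and 262 ± 23.1 at snoRNA genes. They were denser at tRNA genes than over the arms in 3 of 3 replicates, by 267 ± 126 per Mb, with the smallest possible exact p of 0.25. Replicate 1 did not have its highest density at the gene, with 281 per Mb within 250 bp against 330 at 251 to 500 bp. Against protein-coding start sites the difference was −25.1 ± 68.4 per Mb with an exact p of 0.75, within the spread between replicates.

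**Figure D4:**
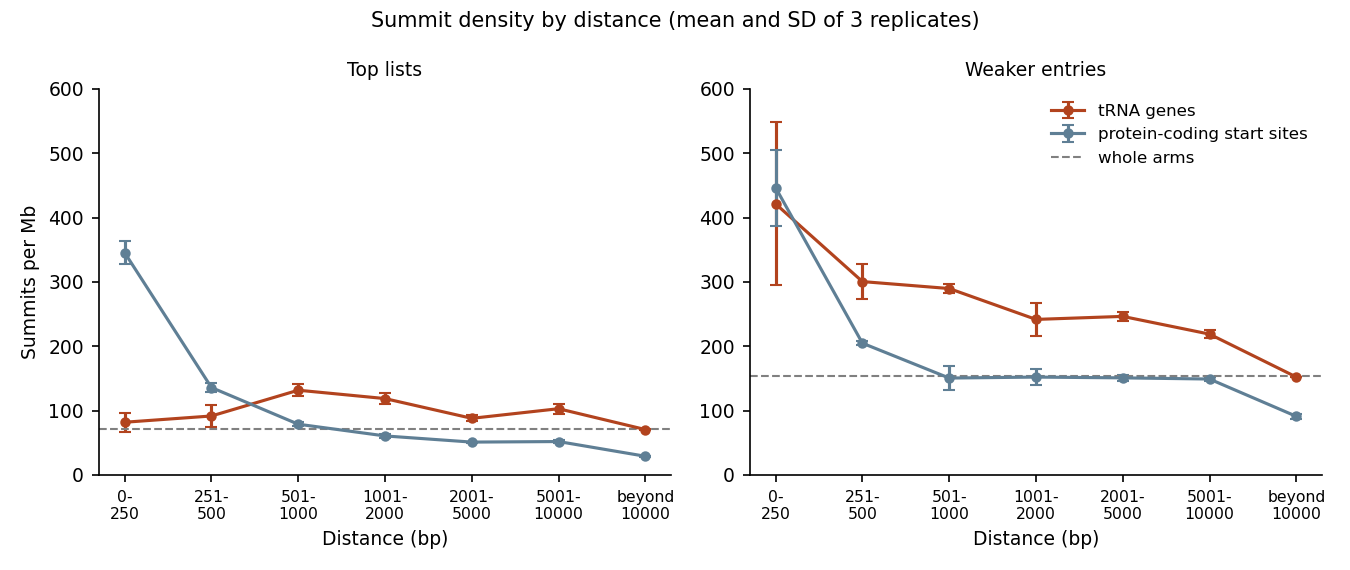
Density of summits, per Mb, by distance in bp from tRNA genes and from protein-coding start sites, for the top lists (left) and for the weaker entries of the replicate lists (right). Points are means and error bars SDs of 3 replicates, and the dashed line is the density over the arms. In the top lists the line for tRNA genes has no maximum at the gene, whereas in the weaker entries its mean is highest, at 421 per Mb, within 250 bp, where replicates 2 and 3 but not replicate 1 have their maximum.

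These weaker summits lay closer to the gene. Of the 91 weaker pooled summits within 500 bp of a tRNA gene, 41 (45.1%) were inside the gene or within 100 bp of it, against 2 of the 21 optimal summits, while 33.4% of the bases within 500 bp of a tRNA gene lie in that range. Among the 91, 12 were inside the gene, 22 were 1 to 100 bp upstream and 7 were 1 to 100 bp downstream. In the replicate lists the share inside or within 100 bp was 35.7%, 51.1% and 48.0%, so replicate 1 stood close to the share of bases. Either B box form stood in 11 of the 91 windows of 101 bp around these summits (12.1%). The windows were chosen near tRNA genes, 77.9% of which hold either form, so such hits follow in part from the choice. The share over all weaker windows was not counted for the B box. GAGAG stood in 10 of the 91 (11.0%), against 14.2% of the windows around all weaker pooled summits.

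**Figure D5:**
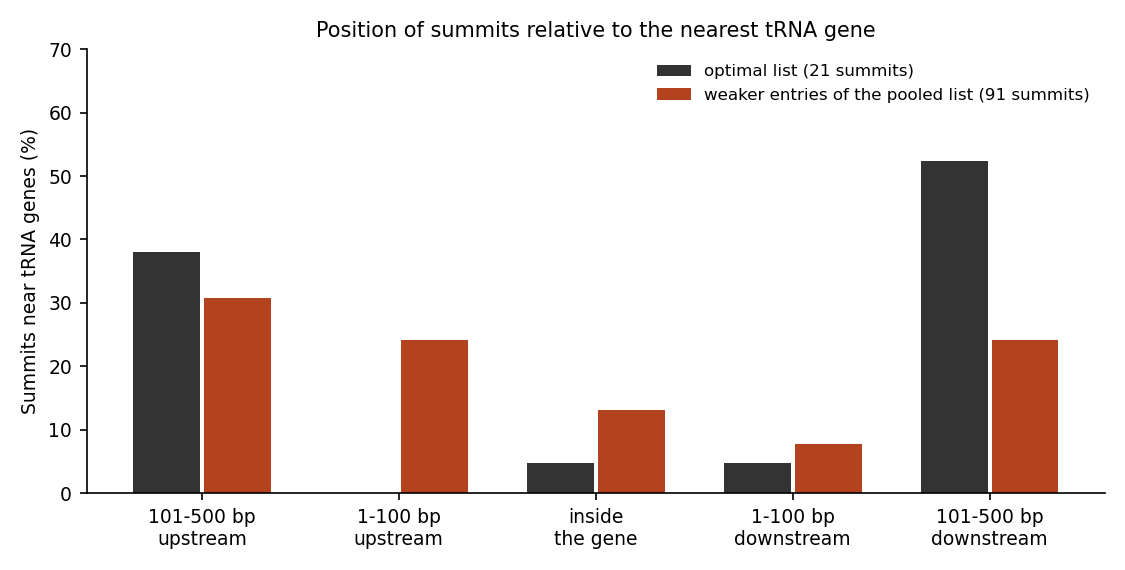
Share of summits within 500 bp of a tRNA gene by position relative to the nearest tRNA gene, for the 21 optimal summits and the 91 weaker pooled summits. The bins differ in width. None of the optimal summits lay 1 to 100 bp upstream, where 22 of the 91 weaker ones did.

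Counting any pooled entry, 132 tRNA genes (45.5%) had one within 500 bp of the gene, against 51.2% of all other genes. Within 500 bp of the 5′ end 125 tRNA genes (43.1%) had one. By that measure the share was 41.7% for all other genes, 46.4% for protein-coding genes and 17.5% for snoRNA genes. Positions of the arms lay within 500 bp of a pooled summit in 17.0% of cases. In the full replicate lists the shares by the 5′ end were 40.5% ± 4.21 for tRNA genes, 41.6% ± 1.32 for all other genes, 46.2% ± 1.54 for protein-coding genes and 22.1% ± 0.568 for snoRNA genes (SD, n = 3). Thus at this length of list, and by the 5′ end, tRNA genes and other genes differed by less than the spread between replicates. Of the tRNA genes, 51 (17.6%) had a pooled entry with a q-value of at most 0.01, and 70 had an entry in all 3 full replicate lists. These 2 counts were not made for other genes, so they cannot be called low or high. The 109 unbound genes with a pooled entry had a median best rank of 17935, and their highest was 10305, for the entry shared by tRNA:Ser-TGA-1-1 and tRNA:Ser-TGA-2-1. All 6 genes of the cluster from tRNA:Leu-CAG-1-2 to tRNA:Leu-CAG-1-7 had a pooled entry, and so did 8 of the 11 from tRNA:Arg-ACG-1-2 to tRNA:Arg-ACG-1-4.

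Other genes transcribed by RNA polymerase III gave a mixed picture. The 96 5S rRNA genes on 2R, which lie in an array of near-identical repeats, had 0 optimal summits and 0 pooled entries within 500 bp. Of 9 further genes 3 were bound, beside 29.8% of all genes other than tRNA genes, which are mostly longer. All 9 lay over 500 bp from a protein-coding start site. Without such a site within 500 bp, 4.60% of snoRNA genes and 22.2% of snRNA genes were bound. The 9 genes are too few for their count to be called high or low. snRNA:7SKa, whose RNA holds the elongation factor P-TEFb inactive, had a summit of signal 337 inside the gene, and snRNA:U6:96Ab and snRNA:U6:96Ac, genes for the spliceosomal U6 RNA, shared a summit of signal 423. The unbound ones were snRNA:7SKb, snRNA:U6:96Aa, the signal recognition particle RNA genes 7SLRNA:CR42652 and 7SLRNA:CR32864, RNaseP:RNA and RNaseMRP:RNA. The 3 bound genes were in all 3 top lists.

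The protein-coding genes that make and process tRNAs were bound at their starts in 7 of 17 cases (41.2%), beside 27.4% of all protein-coding genes. The genes for the TFIIIB subunits Bdp1 and Brf had summits of signal 1486 and 1453, both in all 3 top lists. Among genes for RNA polymerase III subunits, Polr3C (signal 1166), Polr3E (908) and Polr3D (235) were bound, while Polr3A, Polr3B, Polr3F, Polr3G and Polr3K were not. RNaseZ (439), which trims tRNA 3′ ends, and La (426), which binds the ends of new RNA polymerase III transcripts, were also bound. Polr3D and RNaseZ were in 2 of the 3 top lists, while Polr3C, Polr3E and La were in all 3. The TATA-factor genes Trf and Tbp, the polymerase III repressor gene Maf1, the tRNA ligase gene RtcB and the growth regulator gene Myc were not bound.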

How the data were processed

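ChIP-seq peak lists of 3 biological replicates of 1 group were used. Per the deposited text files, the replicate and pooled lists are peaks plus background, called with a control, that entered the irreproducible discovery rate (IDR) step, from which the optimal list came. Aligner, peak caller, IDR threshold and the treatment of reads with several places are not stated in the sources. Per the labels, chromatin was sonicated to 200 to 800 bp. Lists exist on 2 assemblies and those on dm6 were used. As deposited by the authors, entries carry a signal value of unstated scale, a −log10 q-value and the offset of the summit from the entry's start. Signal was compared only within a list. The authors' −log10 q-value served only to count entries with q at most 0.01.

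From these lists, distances, shares and densities were computed in Python 3.11.15 (scipy 1.17.1, numpy 2.4.6, pandas 2.3.3; figures with matplotlib 3.10.9). Gene models came from Ensembl 115 and sequences from RefSeq's copy of genome release 6. The densities and the shares of arm positions cover the arms that carry tRNA genes, 2L, 2R, 3L, 3R and X. Replicate errors are SDs over equally long top lists, with an exact two-sided permutation (sign-flip) test over replicates. Genes are not replicates and were not tested against each other. The members and lists were chosen with earlier results of these data known. Genes were named by a rule: the 12 with the strongest summits, the 8 strongest without a protein-coding start site within 500 bp, up to 4 in each of the 6 clusters with most bound members, the strongest of each amino acid, clusters of 5 or more genes without a bound member, and the genes of both RNA polymerase III lists. The remaining bound genes, the unbound serine and 3L genes, the repeat-rich genes, and the genes at the edge of the 500 bp limit were named after their values were seen. 1 gene of the machinery list is not reported here, and it is left out of that list's counts.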

Additional observations from a re-analysis of the deposited data

How the results depend on the processing

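The low share of bound tRNA genes kept its direction under every alternative run over the replicate top lists. Counted by the whole gene, the pooled list also kept this direction, at 45.5% for tRNA genes against 51.2% for all other genes. Longer lists, counted by the 5′ end, did not all keep it. The pooled list gave 43.1% for tRNA genes against 41.7% for all other genes. For replicate 1 the full list still had the lower share at tRNA genes, 35.9% against 42.1%. The other full lists had it slightly higher, at 41.4% against 40.1% (replicate 2) and 44.1% against 42.6% (replicate 3). With all 3 replicates, the difference from all other genes over the top lists was −21.1 points. It ranged from −21.3 (summit within 250 bp) to −13.1 (5′ end of every gene). The permutation test paired the 2 shares within each replicate, while no pairing of conditions was possible because the series has 1 group. Without replicate 1, 2 or 3 the difference over the top lists was −21.4 to −20.6, with an exact permutation p of 0.5, the smallest that 2 replicates allow. Counts moved with the window and the list. With summits within 250 bp, 13 tRNA genes were bound (8 without and 5 with a protein-coding start site within 500 bp), 7 had a summit upstream, 11 clusters were bound and 7 genes were in all 3 top lists. With 1000 bp the values were 49 bound genes, 38 without such a site, 26 upstream, 32 clusters, 37 in all 3 top lists and a median signal of 342. In the stronger 50% of the list they were 9 bound, 5 without and 4 with such a site, 5 upstream, 9 clusters, 6 in all 3 and a median signal of 507. Requiring an entry to overlap the gene gave 9 bound genes, and genes without an identical copy gave 7. Counting start sites within 250 bp left 3 bound genes with one, of 12 such genes, against 20 of 278 without one. Counting start sites within 1000 bp gave 12 of 80 with one, against 11 of 210 without. The bound share with a start site was thus lower at 1000 bp than at 500 bp, so its size depended on the cutoff. It stayed above the share without one at each cutoff. The optimal list was not remade without a replicate. Instead, only optimal entries overlapped by both remaining top lists were kept, so the bound counts could only fall. Leaving out replicates in this way gave 19 to 20 bound genes, 10 to 11 without and 9 with a start site, 10 upstream and 14 to 15 clusters. It gave a median signal of 342 to 386, and 17 to 18 of the bound genes had a summit in both remaining top lists. The genes lost without replicate 2 or without replicate 3 were tRNA:Pro-AGG-1-2, tRNA:Leu-CAG-1-1, tRNA:Ala-TGC-2-1 and tRNA:Leu-TAA-4-1, and without replicate 1 all of these but tRNA:Ala-TGC-2-1. Such a loss shows missing overlap in a remaining top list, not that the call rested on the replicate left out. Chosen after seeing the data, the count of 132 tRNA genes with a pooled entry was 83 within 250 bp and 51 with q at most 0.01, and an entry in both remaining full lists left 75 to 98 of them. For shifts beyond what a narrower window or shorter list entails, the cause was not tested. The replicate lists have signal scales of their own, so no median signal was set across them. Depth is not known for any list.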
